A study of Solanum tuberosum with 8 samples.

Results

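LKR/SDH is the bifunctional enzyme lysine-ketoglutarate reductase/saccharopine dehydrogenase, which opens the breakdown of lysine in plants. On the potato microarray used here it was followed through 3 probes, MICRO.7729.C1, MICRO.7180.C1 and MICRO.4464.C2, out of 42034 potato probes on the array and 36435 probes that passed the filter on low values. The 3 probes were chosen because the study's tables of changed probes describe them with this enzyme name, and so they were selected on their measured changes on these same arrays. The values and changes of the 3 probes in every comparison are therefore given as a description, without a p-value. All 3 passed the filter and had a signal well above background on all 8 arrays.

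Leaves of the potato (Solanum tuberosum) cultivar Solara were compared in wild-type siblings (WT) and in Stpfld252. Stpfld252 is a single transgenic line that makes a cyanobacterial flavodoxin, an electron carrier, from the constitutive CaMV 35S promoter with a plastid transit peptide, so that the protein is delivered to the chloroplast. Plants raised from tuber pieces for 4 weeks in soil were either watered throughout (control) or left for 3 days without water (drought), and both lines were grown alike. Each of the 4 groups, WT control, WT drought, Stpfld252 control and Stpfld252 drought, had 2 arrays, each hybridised with leaf RNA from a separate pool of plants. The 10 plants sampled per line and treatment were pooled, so that the spread between the 2 arrays of a group is a spread between pools and not between plants.

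Plants break down lysine through saccharopine. The reductase part of LKR/SDH joins lysine to 2-oxoglutarate, and the dehydrogenase part splits the product into glutamate and aminoadipate semialdehyde, which is then oxidised further. Both parts lie on one polypeptide in Arabidopsis, where the gene also gives a separate dehydrogenase, and lysine breakdown is known there to be raised by osmotic stress, abscisic acid and sugar starvation. Later steps of lysine and of branched-chain amino acid breakdown feed electrons to the mitochondrial respiratory chain through the electron transfer flavoprotein.

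The arrays were of even quality. Between 77.8 and 80.7% of the potato probes were well above background on each array, no potato probe was flagged as saturated, and replicate arrays of a group correlated with r between 0.9961 and 0.9976 over the probes tested. All control arrays lay on 1 slide and all drought arrays on another, so slide and water supply cannot be told apart, while the lines were compared within a slide. On each slide the positions of the arrays also separated the lines. The labelled tissue was checked on leaf markers. All 8 probes of the Rubisco small subunit and all 28 of the chlorophyll a/b binding proteins were well above background on both arrays in every group but WT drought, where 7 and 25 of them were. Their summed levels were lowest in WT drought, with a log2 sum of 17.08 to 17.15 for the Rubisco small subunit there against 18.82 to 19.09 on the other 6 arrays. The log2 summed level of 7 probes for patatin, a tuber protein, was between 10.54 and 10.56 in Stpfld252 control, 9.77 and 9.86 in Stpfld252 drought, 8.36 and 8.55 in WT control and 7.12 and 7.19 in WT drought. All 7 were well above background on both arrays of each Stpfld252 group, 6 in WT control and only 1 in WT drought. The WT drought sum thus comes mostly from spots near background. These leaf and tuber markers thus moved with line and water supply, and their part in the LKR/SDH values was not tested. In whole leaves, fewer cells of a type and less RNA per cell cannot be told apart.

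LKR/SDH transcripts were highest in WT leaves under drought and lowest in Stpfld252 leaves under drought. MICRO.7729.C1, described after the cotton enzyme, gave log2 normalised intensities of 11.84 and 11.86 on the WT control arrays and 14.81 and 14.87 on the WT drought arrays. On the Stpfld252 arrays it gave 13.15 and 13.09 under control conditions and 10.45 and 10.34 under drought. On this scale 1 unit is a 2-fold step. The arrays of each group lay close together, and no group overlapped another. Its spots were bright, with a median signal 56.9 to 59.3 times the local background in WT control, 564 to 600.2 times in WT drought, 174 to 176 times in Stpfld252 control and 23.2 to 25.9 times in Stpfld252 drought.

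MICRO.7180.C1, described after the Arabidopsis enzyme, was a dimmer probe. It gave 6.88 and 7.27 in WT control, 9.93 and 9.89 in WT drought, 8.21 and 8.15 in Stpfld252 control and 5.61 and 5.91 in Stpfld252 drought. The order of the 4 groups was that of MICRO.7729.C1, again without overlap, but the WT control pools stood further apart. In Stpfld252 drought its spots reached only 1.58 and 1.76 times the local background.

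MICRO.4464.C2, also described after the cotton enzyme, gave 8.41 and 8.83 in WT control and 11.47 and 11.29 in WT drought. In Stpfld252 it gave 9.54 and 9.49 under control conditions and 7.13 and 7.30 under drought. The 4 groups took the same order once more and did not overlap. The share of all probes whose groups also lie apart is not given, so nothing is read from the lack of overlap.

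**Figure D1:**
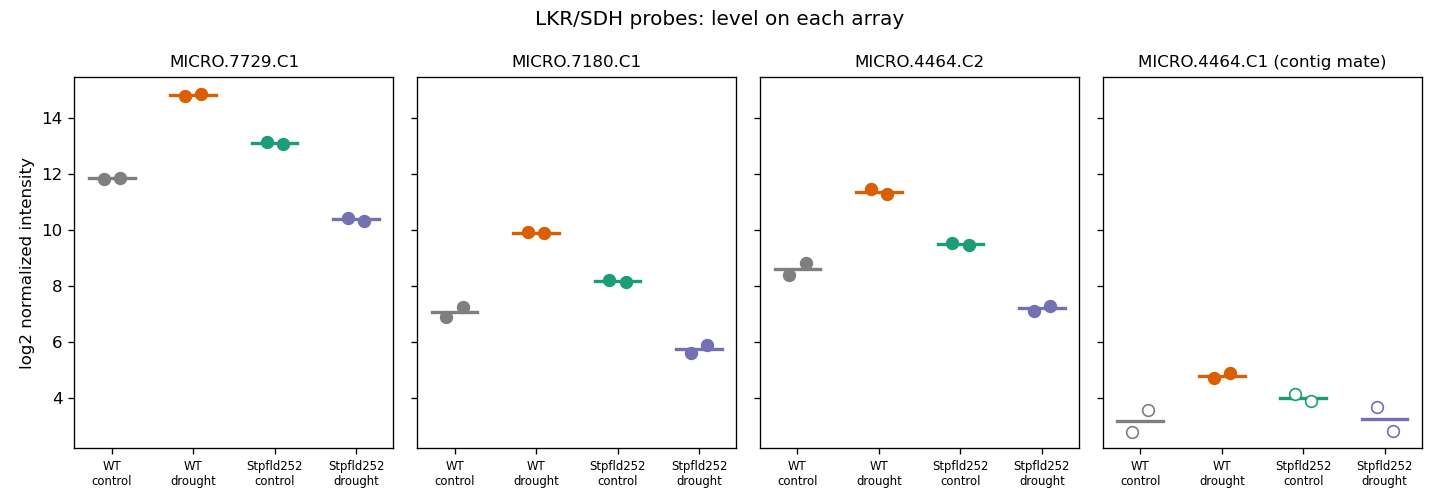
Log2 normalised intensity (vertical axis) of the 3 LKR/SDH probes and of MICRO.4464.C1, which shares a contig cluster number with MICRO.4464.C2, on each of the 8 arrays by group; points are arrays, bars are group means (n = 2), and open points mark spots not well above background. In the 3 LKR/SDH panels WT drought is highest and Stpfld252 drought lowest; levels of different probes are not comparable.

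The group order was thus Stpfld252 drought, WT control, Stpfld252 control and WT drought, from the lowest to the highest level, in all 3 probes. The narrowest step was the one between WT control and Stpfld252 control. There the nearest arrays of the neighbouring groups lay 1.23 log2 units apart for MICRO.7729.C1, 0.88 for MICRO.7180.C1 and 0.66 for MICRO.4464.C2, against a replicate SD of at most 0.04, 0.27 and 0.30 in those groups. The step from Stpfld252 control up to WT drought was 1.72, 1.73 and 1.86 log2 units between group means. From the lowest to the highest group mean the level of MICRO.7729.C1 ranged over 21.7-fold, that of MICRO.7180.C1 over 17.7-fold and that of MICRO.4464.C2 over 17.9-fold. Over the 8 arrays the 3 probes correlated with each other with Pearson's r of 0.993 to 0.998. Whether they report 1 transcript, alleles or separate genes cannot be told from the array files, which give no probe positions, so they are not counted as independent observations.

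Water withdrawal in WT was asked first. MICRO.7729.C1 was 7.93-fold higher under drought (log2 change 2.99, standard error (SE) 0.08), MICRO.7180.C1 7.13-fold (2.83, SE 0.15) and MICRO.4464.C2 6.78-fold (2.76, SE 0.15). A call was defined as more than 2-fold change at a false discovery rate under 0.05 in a limma fit over all probes. All 3 were called induced, as was 8.48% of the probes tested, while 10.3% were called repressed. Since these calls helped to choose the probes, nothing is read from that count. By size of the WT change the probes held places 396, 436 and 466 from the top among 36435.

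In Stpfld252 the same treatment went with lower levels. MICRO.7729.C1 was 6.58-fold lower under drought (log2 change -2.72, SE 0.08), MICRO.7180.C1 5.34-fold lower (-2.42, SE 0.15) and MICRO.4464.C2 4.92-fold lower (-2.30, SE 0.15). All 3 were called repressed, as was 8.14% of all probes tested, while 5.88% were called induced.

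The lines were then compared within each condition, which is also within a slide. In watered plants LKR/SDH was slightly higher in Stpfld252 than in WT, by 2.4-fold for MICRO.7729.C1 (log2 change 1.26, SE 0.08), 2.15-fold for MICRO.7180.C1 (1.1, SE 0.15) and 1.86-fold for MICRO.4464.C2 (0.90, SE 0.15). The last of these lay just below the 2-fold limit and MICRO.7180.C1 just above it, so 2 of the 3 were called, against 3.99% of all probes called higher and 6.08% called in either direction. The call of MICRO.7180.C1 rested on the WT control pools. Without WT control replicate 1 its change was 0.91 and only 1 probe was called, whereas without replicate 2 all 3 were called. Under drought the lines stood far apart. MICRO.7729.C1 was 21.7-fold lower in Stpfld252 than in WT (log2 change -4.44, SE 0.08), MICRO.7180.C1 17.7-fold lower (-4.15, SE 0.15) and MICRO.4464.C2 17.9-fold lower (-4.16, SE 0.15). All 3 were called lower, as was 5.15% of all probes, with 11.3% called in either direction, and they held places 20, 29 and 28 from the lowest. MICRO.7180.C1 was near background in Stpfld252 drought. Under other processings its change between the lines under drought ran from -4.84 to -3.27, a wider range than its SE covers.

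The difference of the drought responses, Stpfld252 minus WT, joins these values. It was -5.71 for MICRO.7729.C1 (SE 0.11), -5.25 for MICRO.7180.C1 (SE 0.21) and -5.06 for MICRO.4464.C2 (SE 0.21) on the log2 scale, which put them at places 9, 13 and 17 from the lowest among 36435 probes. All 3 were called, as was 6.26% of the probes in this direction and 12.4% in either direction. A slide effect of equal size in both lines would cancel in this difference.

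**Figure D2:**
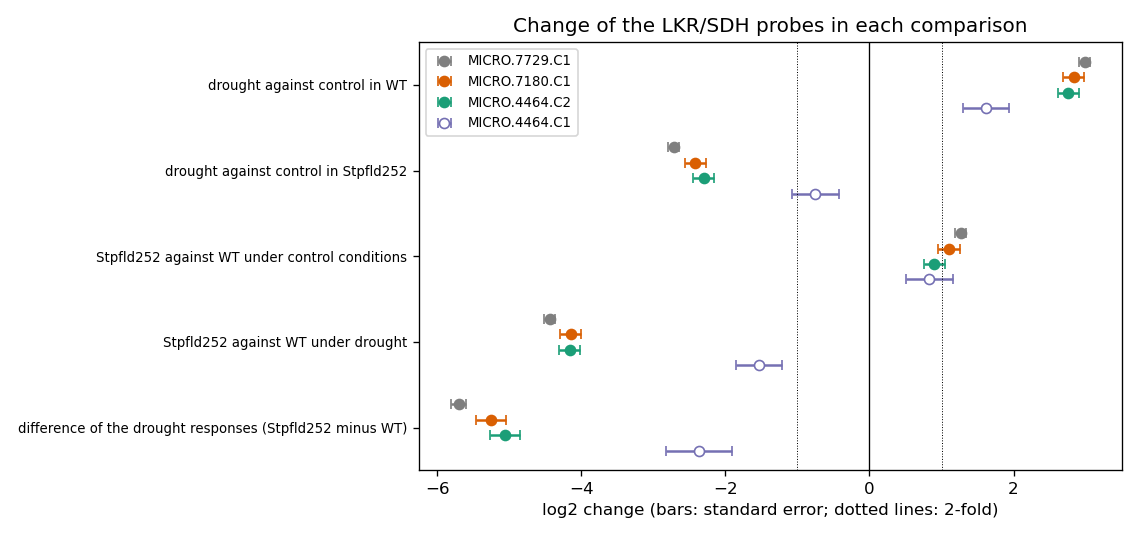
Log2 change (horizontal axis) of the 3 LKR/SDH probes and MICRO.4464.C1 in the 5 comparisons, with standard errors from the fit over all probes as bars and dotted lines at a 2-fold change. The 3 LKR/SDH probes lie above 0 for drought in WT and for Stpfld252 against WT in watered plants, and below 0 in the other comparisons.

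Opposite drought responses of this kind were rare on the array. Of the 36435 probes, 64 or 0.176% were called induced by drought in WT and repressed in Stpfld252, and 48 the other way round. The 64 included the 3 LKR/SDH probes, which held places 2, 4 and 6 when the 64 were ordered by the difference of the responses. In 31 probes, 0.0851% of those tested, the calls also ran higher in Stpfld252 under control conditions and lower under drought. MICRO.7729.C1 and MICRO.7180.C1 were among these, and MICRO.4464.C2 missed only the 2-fold limit in watered plants. The first place among the 64 was held by MICRO.3150.C2, an asparagine synthetase, the enzyme that stores nitrogen as asparagine. It changed by 6.35 log2 units in WT and by -2.85 in Stpfld252.

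**Figure D3:**
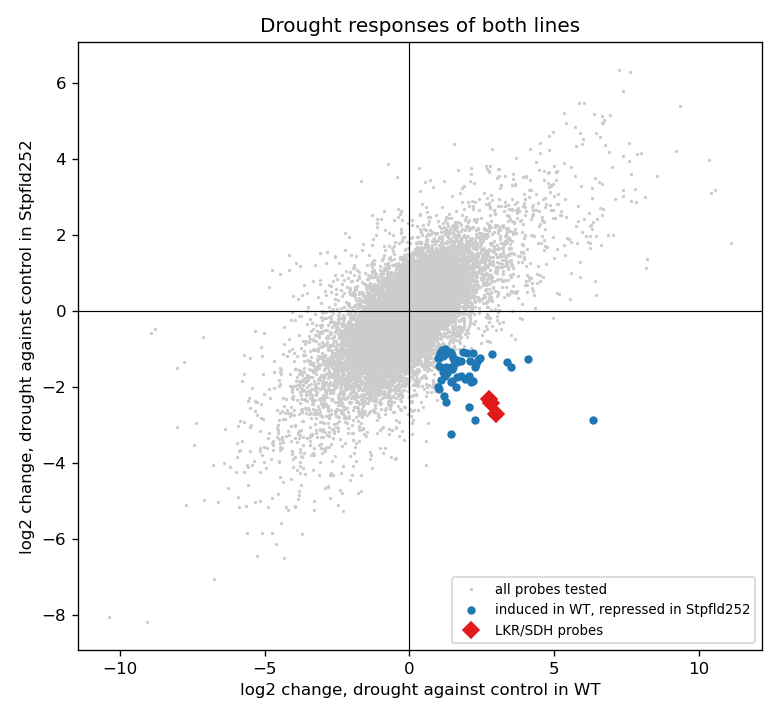
Log2 change under drought in Stpfld252 (vertical axis) against that in WT (horizontal axis) for the 36435 probes tested (grey). Blue points are the 64 probes called induced in WT and repressed in Stpfld252, and red diamonds are the LKR/SDH probes, which lie at the outer edge of that group.

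A further probe, MICRO.4464.C1, carries the cluster number of MICRO.4464.C2 and did not enter the choice of the probes. It is not described in the tables used here, and no other probe on the array shares a cluster number with the 3. It gave 2.81 and 3.56 in WT control, 4.70 and 4.90 in WT drought, 4.14 and 3.89 in Stpfld252 control and 3.69 and 2.84 in Stpfld252 drought. The WT drought arrays were the highest, and these were the only arrays on which the spot was well above background, with 1.16 and 1.19 times the local background. WT control and Stpfld252 drought overlapped. The probe passed the filter on low values only through WT drought, the group in which it was high, so the fit favours a difference and no p-value is given for it. WT control was also set to the higher of the probe's own level and the lowest level of any probe well above background on each array. Against that value MICRO.4464.C1 was 2.11-fold higher in WT drought with normexp offset 0. This is no minimum, as the log2 change in WT was only 0.36 with offset 50. The other groups were not well above background, and they are given by their values alone. The values come from the same pools of RNA as those of the 3 LKR/SDH probes and are no independent support for them.

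Other genes of lysine metabolism and of amino acid breakdown were taken from the same tables of changed probes, in lists that hold 65 probes, all of them tested. As these tables were made from the present arrays, a high count of calls was fixed by the choice, and counts and medians are given without a test. In WT under drought 24 of the 65 were called induced and 23 repressed, with a median log2 change of -0.65 against 0.04 over all probes tested. In Stpfld252 the counts were 11 and 13 and the median -0.09 against 0.05.

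Upstream of lysine, 8 probes stood for the synthesis of lysine and threonine from aspartate. In WT 5 of them fell under drought and 1 rose, while in Stpfld252 1 fell and 2 rose, and the medians were -1.31 and 0.54. The probes that fell in WT included the bifunctional aspartokinase-homoserine dehydrogenases MICRO.710.C1 (-2.07 in WT, 0.55 in Stpfld252) and cSTB47E1TH (-1.73 and 0.87). Aspartokinase phosphorylates aspartate at the entry of the pathway. The lysine-sensitive aspartate kinase MICRO.1787.C1 changed by -1.40 in WT and 0.30 in Stpfld252, and the monofunctional aspartokinase MICRO.9291.C1 by -1.33 and 0.53. The probe bf_swstxxxx_0060f06.t3m.scf, filed as an aspartate kinase without a named match, changed by -1.28 and 0.43. In all 5 the level under drought was called higher in Stpfld252 than in WT, opposite in sign to LKR/SDH. Homoserine kinase MICRO.14267.C1, on the branch to threonine, rose in both lines (1.91 and 2.13). The probe BF_LBCHXXXX_0037E11_T3M.SCF, filed under homoserine dehydrogenase of the same branch, showed 0.77 in WT and 1.41 in Stpfld252. The only probe of the list on the lysine branch itself, bf_cswbxxxx_0031h09.t3m.scf, is filed under dihydrodipicolinate synthase, the enzyme that commits the pathway to lysine. It showed -0.92 in WT and -1.13 in Stpfld252, of which only the second was called, and under drought the lines differed by -0.08, which was not called.

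Another route that could consume lysine is decarboxylation, and 4 probes were filed under a lysine decarboxylase bin. Plant proteins filed under this name include enzymes of the LOG family, which in Arabidopsis and rice release active cytokinins, so the bin name does not fix the activity. In WT 1 of the 4 rose and 2 fell under drought, and in Stpfld252 1 fell. MICRO.7814.C1 came nearest to LKR/SDH, with a change of 1.59 in WT and -0.997 in Stpfld252, of which only the first was called. MICRO.4881.C2 fell in both lines (-3.19 and -3.32). MICRO.3275.C2 (-1.16 and -0.42) and MICRO.4881.C1 (-0.95 and -0.11) showed smaller values.

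Among the lists around lysine breakdown, opposite calls of both lines as in LKR/SDH were found for a single probe of the 65, the asparagine synthetase above. The 3 probes of the electron transfer flavoprotein were all called induced in WT, just past the 2-fold limit (median 1.06), and none in Stpfld252 (median -0.09); the level under drought was called lower in Stpfld252 for 2 of them, MICRO.15387.C2 (-1.07) and bf_arrayxxx_0037g07.t7m.scf (-1.11). Branched-chain aminotransferases, which open or close the pathway of leucine, isoleucine and valine, were called induced in WT for 3 of 4 probes. MICRO.10926.C1 and MICRO.10925.C1 changed by 8.22 and 6.43 in WT and by 1.38 and 0.78 in Stpfld252. In WT control their spots reached only 1.46 to 1.49 and 1.29 to 1.42 times the local background. The size of their changes is therefore not set against that of LKR/SDH. Of 5 probes of branched-chain amino acid breakdown 2 rose and 1 fell in WT. They included a branched-chain keto acid dehydrogenase E2 subunit, bf_arrayxxx_0098a12.t7m.scf (1.15 in WT, -0.45 in Stpfld252), and isovaleryl-CoA dehydrogenases of leucine breakdown that differed from each other, bf_suspxxxx_0054f04.t3m.scf (-0.72 and 1.19) and MICRO.9171.C1 (1.51 and 0.48).

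The lists for other amino acids were mixed. Glutamate, a product of the LKR/SDH reaction, is decarboxylated to GABA, and 7 of 8 probes of this step fell in WT while 1 rose. The latter, MICRO.6945.C1, changed by 6.86 in WT and 2.00 in Stpfld252, and MICRO.3974.C4 by -4.48 and 0.99. Spots of MICRO.6945.C1 reached only 1.92 to 2.02 times the local background in WT control. Those of MICRO.3974.C4 reached only 1.81 to 1.84 times in WT drought, so the size of both changes is uncertain. MICRO.100.C1 and MICRO.100.C2 among the 7 are described as a viroid RNA-binding protein and not as a decarboxylase (-1.98 and -1.21 in WT). Of 12 probes of proline and arginine breakdown 5 rose and 2 fell in WT, and 2 rose and 3 fell in Stpfld252. The only probe of this list that rose in both lines was MICRO.1779.C2, a pyrroline-5-carboxylate reductase, which makes proline (2.34 and 1.64). The largest differences of the drought responses in this list were those of MICRO.3305.C1, an arginase (-0.66 and -2.51), and MICRO.2765.C2, a urease accessory protein (-0.78 and 1.06). For asparagine, 2 of 4 probes rose and 2 fell in WT, and 1 rose and 2 fell in Stpfld252. The asparaginases among them, which release ammonium from asparagine, differed from each other, as MICRO.5707.C1 fell in both lines (-3.37 and -1.74) and MICRO.11958.C1 rose in both (1.45 and 1.11). In methionine breakdown 1 of 4 probes rose in WT, MICRO.2739.C1, which is matched to a methionine gamma-lyase of Arabidopsis (4.69 and 2.17), while an adenosylhomocysteinase, MICRO.71.C8, showed -0.08 and -0.52. Of 13 probes for glycine, aromatic amino acids and histidine 5 rose and 4 fell in WT, among the former homogentisate dioxygenase POAEB63TV of tyrosine breakdown (1.84 and -0.18). BF_TUBSXXXX_0003E03_T3M.SCF of that list, filed under tryptophan breakdown without a named match, showed -0.65 and -2.46. Its spots were near background, at most 1.33 times the local background, in every group but Stpfld252 control.

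**Figure D4:**
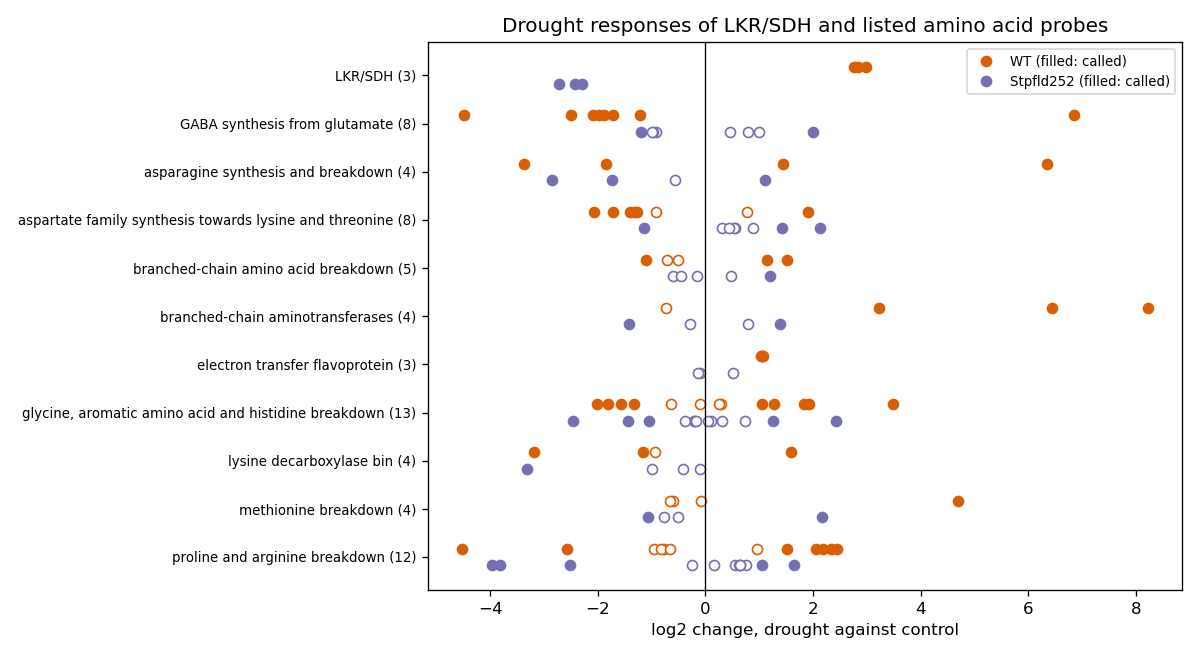
Log2 change under drought (horizontal axis) in WT (orange) and Stpfld252 (purple) of the LKR/SDH probes and of each listed group of amino acid probes, with the number of probes in parentheses; filled points passed the call in that line. For the LKR/SDH probes all points of WT lie above 2 and all points of Stpfld252 below -2. The same holds for the asparagine synthetase MICRO.3150.C2, which is plotted in a mixed list.

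The probes whose profile was most like that of LKR/SDH were sought among 30902 other probes with a signal well above background on all 8 arrays, by Pearson's r with the mean centred profile of the 3 probes. The 8 arrays fall into 4 groups, so this r mostly compares 4 group means and is given as a description. The 10 highest values ran from 0.988 to 0.997, held by STMGP26TV, MICRO.1751.C8, MICRO.7474.C2, bf_mxlfxxxx_0032g01.t3m.scf, MICRO.7512.C1, bf_cswbxxxx_0066d12.t3m.scf, MICRO.8517.C1, bf_mxflxxxx_0040c08.t3m.scf, MICRO.1002.C2 and MICRO.17192.C1. Of these only MICRO.8517.C1 has a named function in the tables used here. It stands for phosphoenolpyruvate carboxykinase, an enzyme that turns oxaloacetate towards sugar synthesis, and it changed by 1.28 log2 units in WT and by -1.47 in Stpfld252. The 10 probes shared the shape but not the size of the LKR/SDH profile. Their group means spanned 0.61 to 2.98 log2 units, where the 3 LKR/SDH probes spanned 4.15 to 4.44. The widest span was that of bf_mxlfxxxx_0032g01.t3m.scf, a protein of unknown function, which changed by 2.15 in WT and -1.88 in Stpfld252. The most opposite profiles, with r from -0.998 to -0.993, were those of MICRO.6792.C1, MICRO.13374.C2, MICRO.1345.C1, MICRO.4063.C1 and MICRO.16998.C1. The widest of them, MICRO.13374.C2, changed by -1.85 in WT and 1.45 in Stpfld252. Which probes were nearest depended on the scaling, as 4 of the 10 stayed under median scaling and 6 under cyclic loess.

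**Figure D5:**
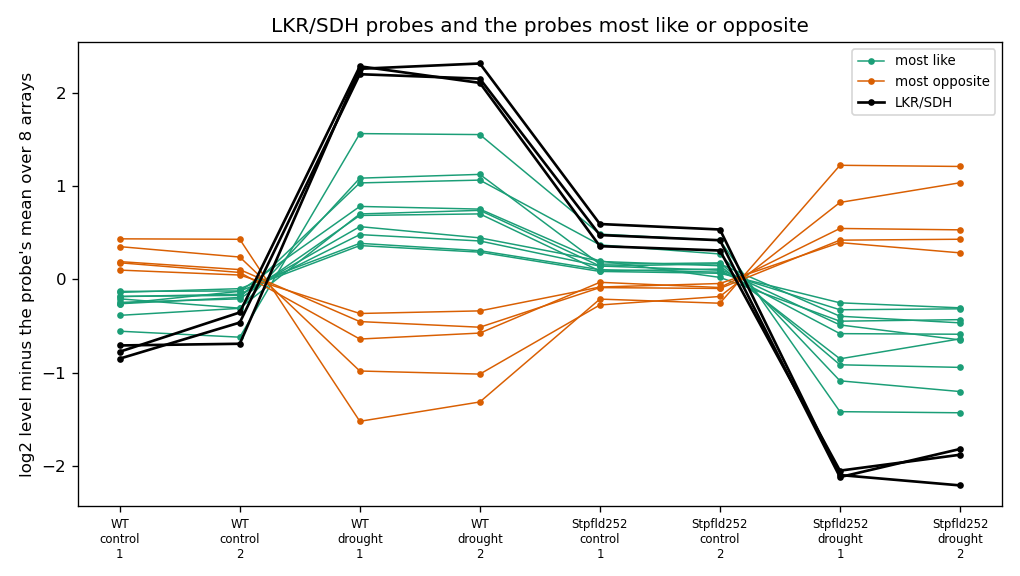
Log2 level minus the probe's mean over the 8 arrays (vertical axis) on each array (horizontal axis) for the 3 LKR/SDH probes (black), the 10 probes with the most similar profile (green) and the 5 with the most opposite one (orange); lines only join the points of a probe. The LKR/SDH probes spread further from 0 than the others in both drought groups.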

How the data were processed

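Leaf RNA of 8 pools was hybridised to one-colour Agilent potato arrays. The authors deposited scanner files with spot intensity, from which median signal and local background were taken, plus flags. Per the file headers, Feature Extraction 11.5.1.1 made them. The authors also deposited a table of normalised log2 values for 32469 probes, with a median of 8.68 on every array. It correlated with the values used here with r of at least 0.9978, with slopes of 0.925 to 0.929 on them, and served as an alternative. Limma is the tool named in the submitters' processing notes.

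Background was corrected by normexp (offset 0), values were quantile-normalised on the log2 scale, and control spots were removed. A probe was kept when both arrays of at least 1 group exceeded 1.1 times the 95th percentile of 153 negative controls. Group means were fitted with limma 3.58.1 in R 4.3.3, with Benjamini-Hochberg adjustment over 36435 probes in each of 5 comparisons. The fit was tested on simulated data. The 2 pools of a group came from independent experiments, and p-values measure the spread between these pools only. Alternatives were other offsets, scalings, filters, priors, the processed signal, a replicate block, fits on the 4 arrays compared and leaving out each array.

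The members and lists were chosen with earlier results of these data known. Named were the 3 members, probes sharing their cluster number, all probes of the lists for lysine decarboxylase and for synthesis from aspartate, the 2 probes with the largest difference of responses from each other list, and the 10 most and 5 least similar profiles. Descriptions come from the study's tables, whose columns of fold changes and p-values were not used. The flavodoxin transgene was not checked, and probe and protein sequences were not used here.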

Additional observations from a re-analysis of the deposited data

Results flagged for a closer look

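The drought responses of WT and Stpfld252 ran in opposite directions on every array for MICRO.7729.C1, MICRO.7180.C1 and MICRO.4464.C2. Both WT drought arrays lay above both WT control arrays, and both Stpfld252 drought arrays lay below both Stpfld252 control arrays. The differences of the responses were -5.71, -5.25 and -5.06 on the log2 scale. All 3 were called in the fit over all probes. No p-value is given for them and nothing is read from these calls, because the probes were chosen on these arrays. For MICRO.4464.C1 too, both WT drought arrays lay above both WT control arrays, and both Stpfld252 drought arrays below both Stpfld252 control arrays. Its groups did not take the order of the 3 LKR/SDH probes, as WT control and Stpfld252 drought overlapped. The fitted difference of MICRO.4464.C1 was -2.37, for which no p-value is given either. That probe passed the filter only through WT drought and was not well above background in the other 3 groups. Of 43 other named probes, 29 also had opposite moves of every array, and many of these 43 were named for their differences or profiles. The share among all probes is not given, so such moves cannot be called unusual here and nothing is read from the count.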

How the results depend on the processing

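All 3 LKR/SDH probes kept their direction in all 5 comparisons under every alternative run, and all 3 stayed called in the comparisons other than that of the lines in watered plants. There, 2 were called, 1 with normexp offset 50, and between 1 and 3 when 1 array was left out, the extremes being those without WT control replicate 1 and 2. The difference of the drought responses stayed between -5.88 and -5.64 for MICRO.7729.C1, -6.14 and -4.14 for MICRO.7180.C1 and -5.38 and -4.59 for MICRO.4464.C2. For drought in Stpfld252 the change of MICRO.7180.C1 ran from -2.98 with the processed signal to -1.70 with normexp offset 50. Between the lines under drought it ran from -4.84 to -3.27 with the same settings. The listed amino acid probes called numbered 41 to 51 for drought in WT, 17 to 28 for drought in Stpfld252, 12 to 18 and 34 to 43 between the lines in watered and dry plants, and 33 to 45 for the difference.

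The dim MICRO.4464.C1, whose calls are favoured by the filter and are given only to show how they move, changed with the processing. For drought in WT (1.62) it lost its call at 0.74 with normexp offset 16, 0.36 with offset 50 and 1.67 with median scaling. For the lines under drought (-1.53) it did so at -0.71, -0.34 and -0.051, and for the difference (-2.37) at -0.48 with offset 50 and -0.86 with median scaling. For drought in Stpfld252 (-0.75, not called) it was called at -1.28 with the processed signal, turned to 0.82 with median scaling, and ranged from -1.17 to -0.33 without 1 array. For the lines in watered plants (0.83, not called) it was called at 1.3 with the processed signal and ranged from 0.45 to 1.21 without 1 array. The causes were not tested. The deposited log2 table does not list this probe. Median scaling moved the median change of all probes to 0.20 for drought in Stpfld252.

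Of the 10 probes most like LKR/SDH, 3 stayed with Spearman's rho, where 8 probes tied at the highest value, 4 with median scaling and 6 with cyclic loess. With the replicate block the counts of LKR/SDH probes called were 3, 3, 2, 3 and 3 in the order of the report, and the counts of listed probes called were also as without it. No pairing by replicate number was seen, as differences between replicates correlated with r of -0.11 to 0.13 between groups. These correlations do not settle whether a replicate number names the same experiment in every group. With 2 pools a group, 1 line and 1 slide per water supply, spread between plants, lines and slides was not measured.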

Other observations

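The 64 probes called induced by drought in WT and repressed in Stpfld252, which include the 3 for LKR/SDH, held 40 with a description. The following were singled out after their values were seen. A pair of probes for trehalose-6-phosphate synthase, MICRO.14835.C1 and cSTC3D14TH, changed by 1.53 and 1.51 in WT and by -1.29 and -1.23 in Stpfld252. The probe STMCN50TV, a trehalose-6-phosphate phosphatase of the same sugar signalling pathway, changed by 1.18 and -1.61. Probes matched to triacylglycerol lipases, MICRO.11027.C1 and MICRO.11026.C1, changed by 1.22 and 1.02 in WT and by -1.70 and -1.45 in Stpfld252. In watered plants the lines differed by 0.12 and -0.16 for these lipases, where the LKR/SDH probes differed by 0.90 to 1.26. For MICRO.8517.C1, the phosphoenolpyruvate carboxykinase probe, that difference was 0.55.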
